A study of Rattus norvegicus with 10 samples.

Results

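Motile cilia beat on the surface of multiciliated cells and move mucus along the nasal passages. Each is built on an axoneme, a ring of doublet microtubules around a central pair. Dynein arms slide the doublets, while radial spokes and a nexin-dynein regulatory complex coordinate them. Tektins and other proteins line the inside of the doublets. The structural genes of motile cilia described here were taken from a list of 59 genes of these parts. Those carrying a probe set whose only gene symbol is on the list were kept, which gave 37 probe sets of 32 genes, among 31042 probe sets and 14217 genes in all. The other 27 listed genes were not analysed here: Dnah3, Dnah5, Dnah6, Dnah9, Dnah11, Dnah12, Dnai2, Spag1, Ccdc39, Iqcg, Rsph4a, Nme5, Spag6, Spag6l, Spag8, Spag17, Hydin, Cfap43, Cfap44, Cfap52, Cfap53, Cfap65, Cfap70, Enkur, Ak8, Ccdc146 and Stk33.

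The study gave male F344/N rats, 5 to 6 weeks old when it began, N,N-dimethyl-p-toluidine (DMPT) in corn oil by gavage at 120 mg/kg/day on 5 consecutive days. The vehicle group had corn oil alone, and each group held 5 separately numbered animals with 1 array each. DMPT is an aromatic amine that speeds the setting of acrylic cements. RNA came from transitional epithelium of the nasal cavity cut out by laser capture, and was amplified before it was hybridised. The values are log2 expression values of probe sets, so that 1 unit is a 2-fold change; a difference is DMPT minus vehicle. A pair of arrays correlated at between 0.959 and 0.992 over all probe sets. Epithelial markers were bright, with Epcam at 13.59 ± 0.13 and Krt8 at 13.21 ± 0.13 (SD, n = 5) with vehicle. The olfactory neuron marker Omp read 7.23 ± 0.44 (SD). Over all 10 arrays, 2 of 7 olfactory neuron markers lay above the median level of all probe sets. So did 4 of 5 genes listed as markers of sustentacular and Bowman gland cells. Vehicle samples also held RNA of multiciliated cells: Foxj1, the transcription factor that switches on the motile cilia genes, stood at 12.21 ± 0.41 (SD).

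After DMPT, transcripts of the axoneme were lower in every structural part that was measured. Of the 32 genes, 25 fell at an adjusted p under 0.05 and 0 rose, where 6.77% of all genes fell and 7.13% rose. All 32 differences were below 0, from -1.79 for the inner arm heavy chain gene Dnah2 to -0.58 for the outer arm light chain gene Dnal1. The median was -1.23, a 2.35-fold lower level, whereas over all genes the median was -0.0052 and 50.9% of differences lay below 0. Counted as probe sets, 27 of 37 fell and 0 rose, where 5.74% of all probe sets fell and 5.37% rose. In tissue samples, fewer multiciliated cells and less ciliary RNA per cell cannot be told apart.

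**Figure D1:**
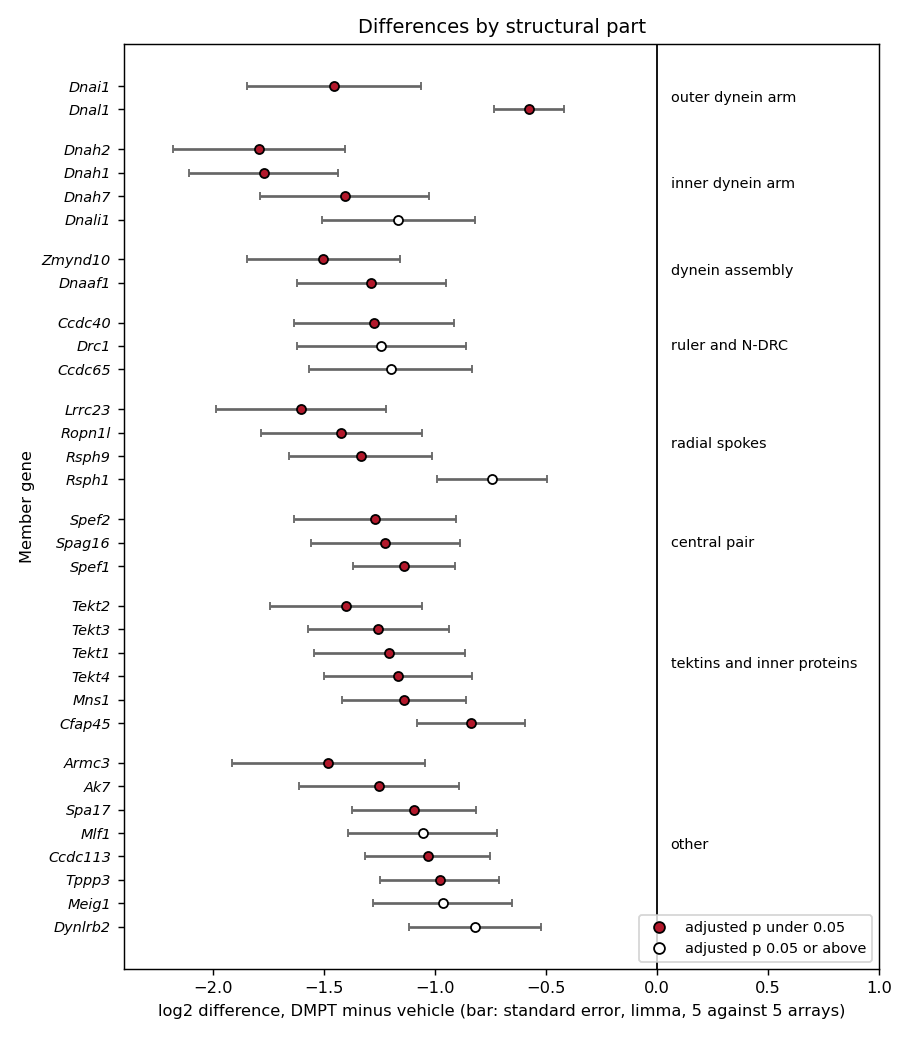
Log2 difference, DMPT minus vehicle, of each of the 32 genes, grouped by structural part; points are estimates, bars are standard errors from limma (5 arrays against 5) and filled points have an adjusted p under 0.05. All 32 points lie left of 0, and the 7 open points lie among the 25 filled ones.

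Genes of motile cilia are known to share RFX and forkhead factors, which bind near their start sites, RFX factors at a sequence called the X-box. Promoters of 26 of the 32 genes were found in RefSeq's annotation of the assembly GRCr8, as 250 bases before to 50 after the start site. The X-box half-site GTTGCC, read on both strands, occurred in 11 of these 26 (42.3%), among them those of Ccdc113, Drc1, Lrrc23, Mlf1, Mns1, Ropn1l, Spef2, Tekt1, Tekt2 and Tekt4. It occurred in 12.2% of all 33469 promoters of that length. The full palindrome is GTNNCC, then 2 bases, then GGNNAC. It can overlap the half-site, and was found in 3 of 26, among them Rsph9 and Zmynd10, and in 1.83% of all promoters. The forkhead core TGTTTAC was found in 4 of 26 (Dnali1, Mlf1, Spef2 and Tekt3) and in 3.78% of all promoters. In all, 9 versions of these motifs were searched, the others occurring in 0 to 4 of the 26 promoters, and a match is not evidence of binding. The promoters of Zmynd10 and Lrrc23 are shown as examples that hold a match, from genes whose falls passed the threshold in all 10 fits that left out 1 array. Capitals mark the palindrome in Zmynd10 and the half-sites in Lrrc23. Both are GRCr8, written 5′ to 3′ in the direction of the gene.
Zmynd10 (chr8:117098779-117099078, plus strand): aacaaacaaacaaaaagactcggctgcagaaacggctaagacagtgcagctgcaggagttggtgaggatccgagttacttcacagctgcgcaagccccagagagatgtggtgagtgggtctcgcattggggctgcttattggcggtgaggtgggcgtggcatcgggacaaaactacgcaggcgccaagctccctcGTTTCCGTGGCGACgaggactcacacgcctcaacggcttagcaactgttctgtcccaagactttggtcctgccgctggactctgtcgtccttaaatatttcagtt
Lrrc23 (chr4:159277715-159278014, minus strand): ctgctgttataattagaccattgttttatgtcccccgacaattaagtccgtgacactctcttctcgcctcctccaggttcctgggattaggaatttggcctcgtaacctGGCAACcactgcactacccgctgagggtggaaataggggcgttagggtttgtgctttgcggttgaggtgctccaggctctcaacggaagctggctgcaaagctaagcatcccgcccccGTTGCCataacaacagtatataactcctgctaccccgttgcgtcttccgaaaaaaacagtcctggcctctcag
The palindrome begins at base 196 of the 300 in Zmynd10, counted from the 5′ end of the window, and the gene starts after base 250. Lrrc23 holds half-sites at bases 110 and 228. The half-site at base 110 follows GTAACC and 1 further base, a spacing that was not searched, so it is not counted as a palindrome here. Dnah1 and Spef1, whose falls also passed in all 10 fits, have neither sequence in this window.

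Inner dynein arms, which shape the bend of the cilium, held the largest differences, and 3 of the 4 measured genes fell. Dnah1, a heavy chain gene of the inner arm, read 9.83, 9.38, 8.02, 8.75 and 8.95 in DMPT replicates 1 to 5 and 10.43, 11.35, 9.96, 10.95 and 11.10 in vehicle replicates 1 to 5. Its 5 DMPT arrays all lay under its 5 vehicle arrays, and it fell by 1.77 ± 0.33 log2 units (adjusted p = 0.00613). Dnah2, another heavy chain gene of this arm, read 8.89, 8.55, 7.20, 8.14 and 7.97 in DMPT replicates 1 to 5 and 9.52, 11.14, 8.96, 10.05 and 10.03 in vehicle replicates 1 to 5. The groups again did not overlap, although DMPT replicate 1 lay close under vehicle replicate 3, and Dnah2 fell by 1.79 ± 0.39 log2 units (adjusted p = 0.0127), or 3.46-fold. Dnah7, the remaining heavy chain gene, fell by 1.41 ± 0.38 log2 units (adjusted p = 0.0349). Dnali1, a light intermediate chain gene, read 10.72, 10.27, 8.95, 9.82 and 9.84 in DMPT replicates 1 to 5 and 10.57, 11.77, 10.28, 11.50 and 11.31 in vehicle replicates 1 to 5. Here DMPT replicate 1 lay above vehicle replicates 1 and 3, and the difference of -1.16 ± 0.34 log2 units (adjusted p = 0.0503) narrowly missed the threshold. A second probe set of Dnali1 gave -0.49 ± 0.14 (adjusted p = 0.0475), so the call of this gene depends on the probe set.

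Outer dynein arms, the main motors of the beat, were represented by an intermediate and a light chain gene, and both fell. Dnai1, the intermediate chain gene in which human mutations cause ciliary dyskinesia, read 10.41, 9.91, 8.35, 9.29 and 9.67 in DMPT replicates 1 to 5 and 10.54, 11.86, 10.05, 11.24 and 11.21 in vehicle replicates 1 to 5. DMPT replicate 1 overlapped the lowest vehicle array, and Dnai1 fell by 1.45 ± 0.39 log2 units (adjusted p = 0.0347). Dnal1, the light chain gene, read 10.41, 10.29, 9.91, 9.95 and 9.82 in DMPT replicates 1 to 5 and 10.44, 10.59, 10.36, 10.97 and 10.91 in vehicle replicates 1 to 5. Its range in both groups was narrow, and it fell by 0.58 ± 0.16 log2 units (adjusted p = 0.0352), the smallest difference of the 32. It was also the only gene in which DMPT replicate 3 was not the lowest DMPT array. Of its other 2 probe sets, 1 fell by 0.65 ± 0.15 with no overlap between groups (adjusted p = 0.0191) and 1 differed by -0.40 ± 0.19 (adjusted p = 0.211).

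Dynein arms are assembled in the cytoplasm before they enter the cilium, and both measured assembly genes fell. Zmynd10, needed for that assembly, read 11.43, 10.80, 9.36, 10.27 and 10.33 in DMPT replicates 1 to 5 and 11.54, 12.68, 11.42, 11.93 and 12.12 in vehicle replicates 1 to 5. DMPT replicate 1 was level with vehicle replicate 3, the other 4 DMPT arrays lay lower than all vehicle arrays, and Zmynd10 fell by 1.50 ± 0.34 log2 units (adjusted p = 0.0169). Dnaaf1, a second assembly factor gene, read 9.52, 9.09, 7.73, 8.94 and 8.83 in DMPT replicates 1 to 5 and 9.88, 10.92, 9.33, 10.12 and 10.30 in vehicle replicates 1 to 5. DMPT replicate 1 again lay above vehicle replicate 3 only, and Dnaaf1 fell by 1.29 ± 0.33 log2 units (adjusted p = 0.0297).

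Genes of the molecular ruler and the nexin-dynein regulatory complex had differences of -1.27 to -1.20, of which 1 of 3 passed. Ccdc40, whose product sets the repeat along the doublet, read 8.27, 8.28, 6.80, 7.55 and 7.73 in DMPT replicates 1 to 5 and 8.47, 10.00, 8.11, 9.28 and 9.14 in vehicle replicates 1 to 5. DMPT replicates 1 and 2 both lay above vehicle replicate 3, and Ccdc40 fell by 1.27 ± 0.36 log2 units (adjusted p = 0.0424). Drc1, a core subunit of the regulatory complex, read 9.22, 8.71, 7.29, 8.49 and 7.59 in DMPT replicates 1 to 5 and 9.19, 10.17, 8.61, 9.85 and 9.69 in vehicle replicates 1 to 5. Its difference was -1.24 ± 0.38 log2 units (adjusted p = 0.0582), with DMPT replicates 1 and 2 inside the vehicle range. Ccdc65, another subunit of that complex, read 10.48, 10.00, 8.27, 9.21 and 9.24 in DMPT replicates 1 to 5 and 10.58, 11.15, 9.93, 10.51 and 11.04 in vehicle replicates 1 to 5. Its difference was -1.20 ± 0.37 log2 units (adjusted p = 0.059), so it did not pass either.

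Radial spokes carry signals from the central pair to the dyneins, and 3 of 4 spoke genes fell. Lrrc23, a spoke protein gene, read 10.95, 10.68, 8.82, 9.98 and 9.95 in DMPT replicates 1 to 5 and 11.49, 12.46, 10.86, 11.71 and 11.87 in vehicle replicates 1 to 5. DMPT replicate 3 was lower than every other array, by more than 1 unit, and Lrrc23 fell by 1.60 ± 0.38 log2 units (adjusted p = 0.0202). Rsph9, a spoke head gene, read 9.82, 9.85, 8.19, 9.19 and 8.88 in DMPT replicates 1 to 5 and 10.22, 10.98, 9.83, 10.65 and 10.92 in vehicle replicates 1 to 5. DMPT replicate 2 lay just above vehicle replicate 3, and Rsph9 fell by 1.33 ± 0.32 log2 units (adjusted p = 0.0214). Ropn1l, a spoke gene that binds anchoring proteins, fell by 1.42 ± 0.36 log2 units (adjusted p = 0.0276). Rsph1, another spoke head gene, read 12.98, 12.60, 11.47, 12.33 and 12.05 in DMPT replicates 1 to 5 and 12.97, 13.19, 12.54, 13.19 and 13.25 in vehicle replicates 1 to 5. Its difference, -0.74 ± 0.25 log2 units (adjusted p = 0.0792), did not pass. DMPT replicate 1 lay above vehicle replicates 1 and 3, and DMPT replicate 2 above vehicle replicate 3. A second probe set of Lrrc23 differed by -0.99 ± 0.38 (adjusted p = 0.124).

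All 3 measured genes of the central pair fell. Spef1, whose product binds the central microtubules, read 9.56, 9.36, 8.72, 8.95 and 8.94 in DMPT replicates 1 to 5 and 9.87, 10.88, 9.70, 10.27 and 10.52 in vehicle replicates 1 to 5. Its groups did not overlap and it fell by 1.14 ± 0.23 log2 units (adjusted p = 0.00872), with the narrowest standard error of these 3 genes. Spag16, a central pair protein gene, read 6.67, 6.82, 5.58, 6.21 and 5.59 in DMPT replicates 1 to 5 and 7.35, 8.39, 6.65, 7.60 and 6.99 in vehicle replicates 1 to 5. DMPT replicates 1 and 2 overlapped vehicle replicate 3, and Spag16 fell by 1.22 ± 0.33 log2 units (adjusted p = 0.037). A second probe set of Spag16 differed by -0.24 ± 0.11 (adjusted p = 0.195). Spef2, needed for assembly of the central apparatus, read 8.40, 7.58, 6.20, 6.95 and 6.67 in DMPT replicates 1 to 5 and 8.23, 9.00, 7.82, 8.36 and 8.74 in vehicle replicates 1 to 5. DMPT replicate 1 lay within the vehicle range, and Spef2 fell by 1.27 ± 0.36 log2 units (adjusted p = 0.0452).

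**Figure D2:**
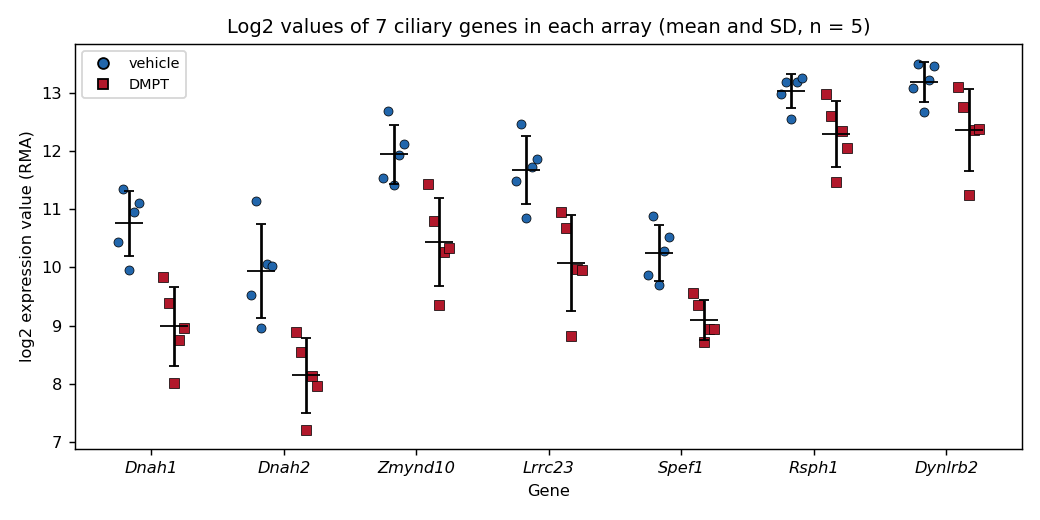
Log2 expression values of 7 genes in each array (vehicle, circles; DMPT, squares), with the mean and SD of each group (n = 5). In Dnah1, Dnah2 and Spef1 the groups do not overlap, whereas in Rsph1 and Dynlrb2 DMPT replicate 1 lies within the vehicle range.

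All 6 genes of tektins and other proteins within the doublets fell. Tekt2, which encodes a filament-forming tektin, read 9.99, 9.42, 8.24, 8.96 and 8.50 in DMPT replicates 1 to 5 and 10.02, 11.15, 9.75, 10.40 and 10.78 in vehicle replicates 1 to 5. Only DMPT replicate 1 overlapped the vehicle arrays, and Tekt2 fell by 1.40 ± 0.34 log2 units (adjusted p = 0.0226). Mns1, whose product lies in the lumen of the doublet, read 7.22, 6.88, 5.59, 6.66 and 6.30 in DMPT replicates 1 to 5 and 7.39, 8.12, 7.27, 8.05 and 7.52 in vehicle replicates 1 to 5. Its groups did not overlap, by a small margin, and it fell by 1.14 ± 0.28 log2 units (adjusted p = 0.0235). Cfap45, another inner protein gene, read 11.52, 11.10, 10.21, 10.73 and 10.70 in DMPT replicates 1 to 5 and 11.68, 12.07, 11.09, 11.63 and 11.99 in vehicle replicates 1 to 5. DMPT replicates 1 and 2 overlapped vehicle replicate 3, and Cfap45 fell by 0.84 ± 0.24 log2 units (adjusted p = 0.0455). The tektin genes Tekt1, Tekt3 and Tekt4 had differences of -1.21, -1.25 and -1.17 and all passed, with adjusted p-values of 0.0416, 0.0265 and 0.044.

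Of the 8 remaining genes, 5 fell and 3 did not pass. Spa17, whose product has a kinase anchoring domain, read 11.17, 10.72, 9.45, 10.15 and 10.14 in DMPT replicates 1 to 5 and 11.43, 11.60, 10.86, 11.47 and 11.73 in vehicle replicates 1 to 5. DMPT replicate 1 reached into the vehicle range, and Spa17 fell by 1.09 ± 0.28 log2 units (adjusted p = 0.0279). Ccdc113, a coiled-coil protein gene of the axoneme, read 11.10, 10.69, 9.64, 10.30 and 10.01 in DMPT replicates 1 to 5 and 11.03, 11.93, 10.79, 11.46 and 11.69 in vehicle replicates 1 to 5. DMPT replicate 1 lay above vehicle replicates 1 and 3, and Ccdc113 fell by 1.03 ± 0.28 log2 units (adjusted p = 0.0366). Dynlrb2, a roadblock-type dynein light chain gene of ciliated cells, read 13.09, 12.76, 11.24, 12.35 and 12.37 in DMPT replicates 1 to 5 and 13.08, 13.49, 12.66, 13.22 and 13.46 in vehicle replicates 1 to 5. Its difference, -0.82 ± 0.30 log2 units (adjusted p = 0.105), had the largest adjusted p of the 32. DMPT replicates 1 and 2 lay within the vehicle range. Armc3, an armadillo repeat protein gene, fell by 1.48 ± 0.43 log2 units (adjusted p = 0.0489). Ak7, an adenylate kinase gene of cilia, and Tppp3, of a family that promotes tubulin polymerization, had differences of -1.25 and -0.98 and passed (adjusted p = 0.0455 and 0.0374). Mlf1 and Meig1 had differences of -1.05 and -0.97 (adjusted p = 0.0663 and 0.0726).

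The genes moved together from animal to animal. DMPT replicate 3 was the lowest DMPT array for 31 of 32 genes and DMPT replicate 1 the highest for 29, the exceptions being Ccdc40, Rsph9 and Spag16. Among vehicle arrays, replicate 3 was the lowest for 32 of 32 genes and replicate 2 the highest for 27. Averaged over the 32 genes, the difference from the vehicle mean was -0.43, -0.79, -2.16, -1.30 and -1.42 in DMPT replicates 1 to 5. It was -0.25, 0.59, -0.69, 0.10 and 0.25 in vehicle replicates 1 to 5. DMPT replicate 1 thus stood above vehicle replicate 3, and DMPT replicate 2 slightly below it. DMPT replicates 3, 4 and 5 lay below all vehicle arrays in 32 of 32 genes, DMPT replicate 2 in 19 and DMPT replicate 1 in 5. The groups did not overlap in 4 genes (Dnah1, Dnah2, Spef1 and Mns1), where 6.29% of all genes had all DMPT arrays below all vehicle arrays. Subtracting each animal's mean over the 32 genes removed 88.7% of their within-group sum of squares. The pooled within-group SD went from 0.62 to 0.21 log2 units. The 32 genes are therefore not 32 independent measurements, and their counts rest on the same spread among 10 animals.

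**Figure D3:**
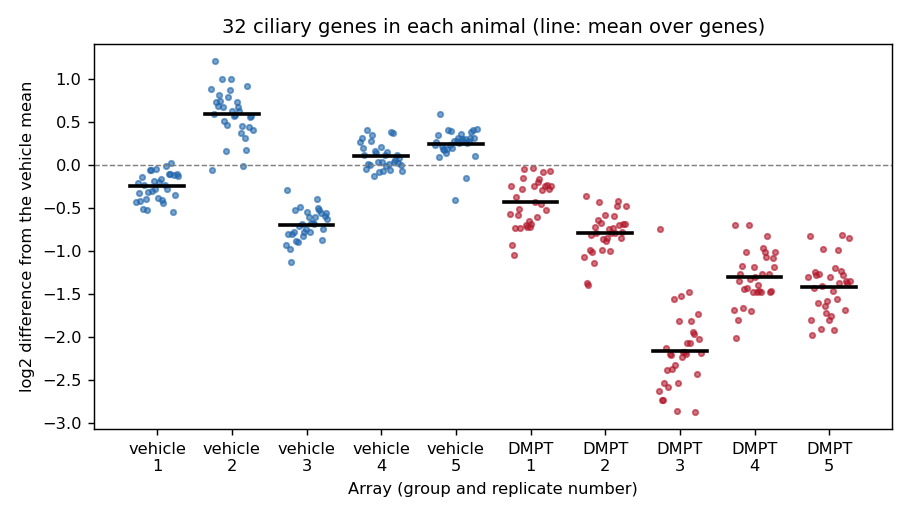
Log2 difference from the vehicle mean of each of the 32 genes in each of the 10 arrays; the line is the mean over genes. DMPT replicate 3 is lowest, at a mean of -2.16, and DMPT replicate 1, at -0.43, lies above vehicle replicate 3, at -0.69.

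**Figure D4:**
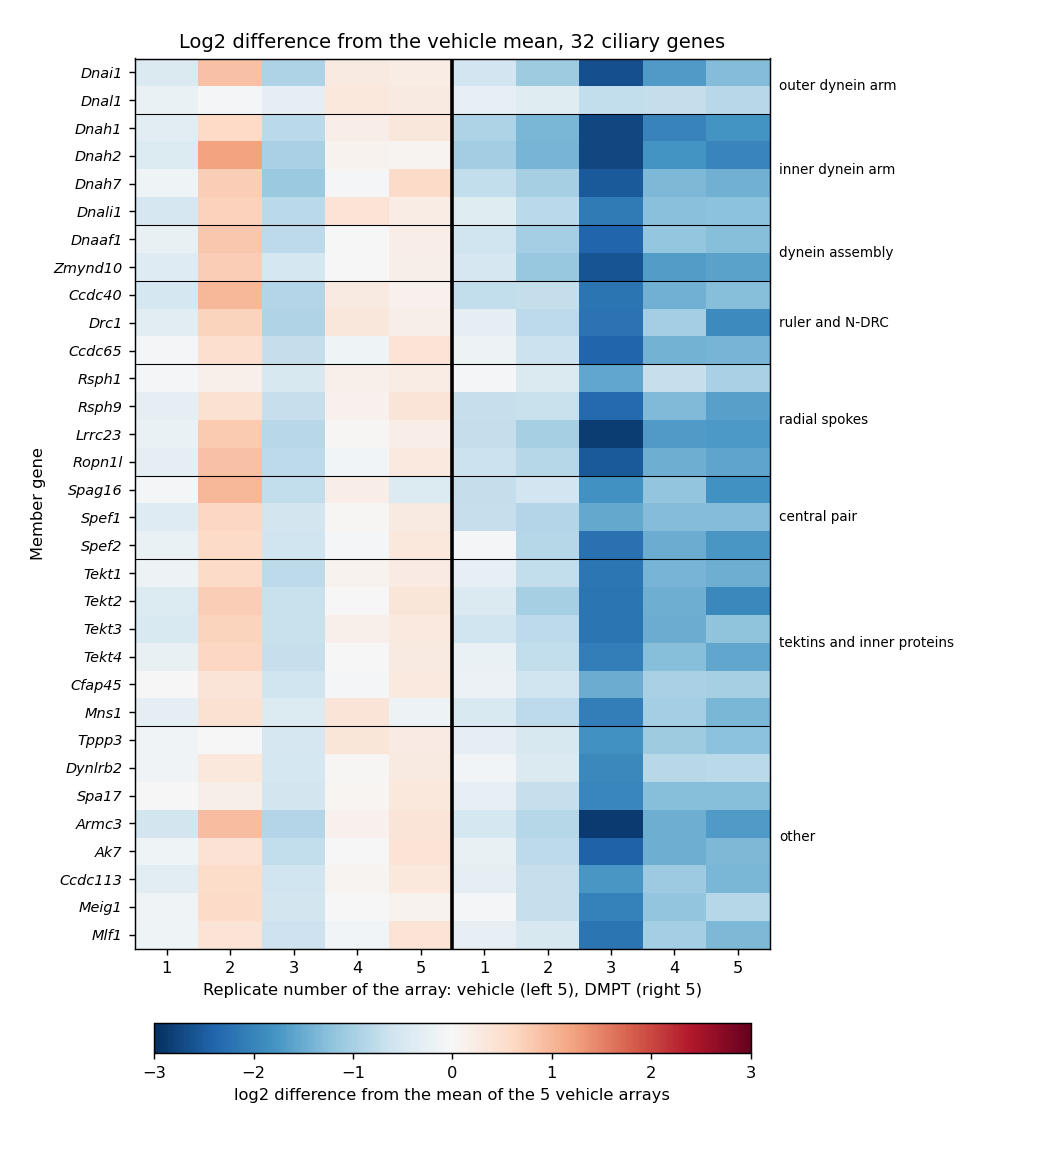
The same differences gene by gene, with the 5 vehicle arrays on the left and the 5 DMPT arrays on the right, and genes in rows by structural part. DMPT replicate 3 is the lowest DMPT array for 31 of 32 genes, and vehicle replicate 3 is the lowest vehicle array for all 32.

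The parts had medians between -1.59 and -1.02. The median difference was -1.59 for 4 inner arm genes, -1.39 for 2 assembly genes and -1.38 for 4 spoke genes. It was -1.24 for 3 ruler and regulatory complex genes, -1.22 for 3 central pair genes and -1.19 for 6 tektin and inner protein genes. The 2 outer arm genes had a median of -1.02 and the 8 others one of -1.04. Differences between parts were not tested, and the standard error of single genes ran from 0.16 for Dnal1 to 0.43 for Armc3.

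The calls were sensitive to leaving out single arrays, while the median difference moved less. Each such fit also had 1 array fewer, and this loss was not told apart from the weight of the animal left out. Of all probe sets, 3.69% were lower without DMPT replicate 4 and 4.37% without vehicle replicate 4, where 5.74% were lower over all arrays. The median difference of the 32 genes in these 2 fits was -1.20 and -1.19. Of the 25 genes that fell, 5 passed in each of 10 fits that left out 1 array: Dnah1, Dnah2, Zmynd10, Lrrc23 and Spef1. The number that passed was 31 without DMPT replicate 1, 29 without vehicle replicate 3 and 20 without DMPT replicate 2. Omitting vehicle replicate 1 left 15 and omitting vehicle replicate 2 left 11. Omitting DMPT replicate 3 or 4, or vehicle replicate 4 or 5, left 7, and omitting DMPT replicate 5 left 5. All 32 differences stayed below 0 in each of these fits, and their median ran from -1.43 to -1.01. Of the 7 genes that did not pass, 6 passed in at least 1 such fit and Dynlrb2 in 0.

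**Figure D5:**
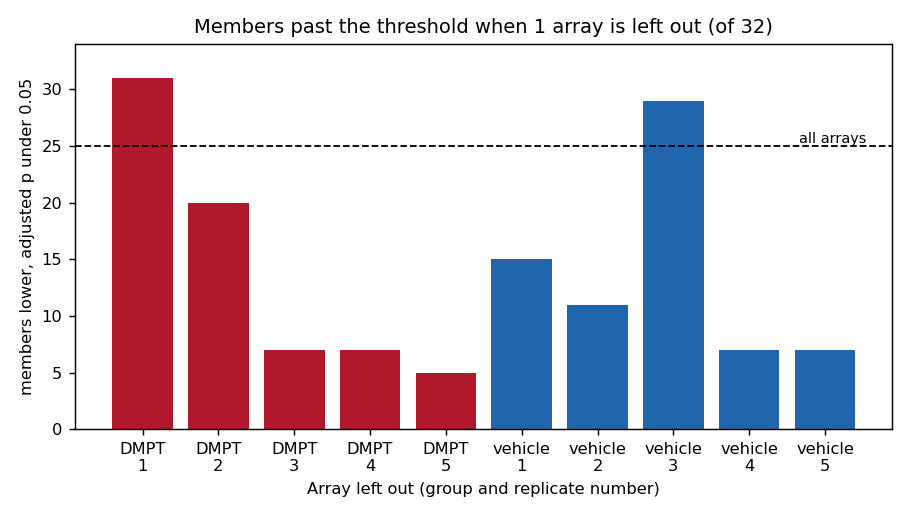
Number of the 32 genes lower at an adjusted p under 0.05 when 1 array is left out (bars), with the number over all 10 arrays as a dashed line at 25. Leaving out DMPT replicate 1 or vehicle replicate 3 gives 31 and 29, and leaving out DMPT replicate 5 gives 5.

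As a measure of RNA quality, log2 values of 5′ control probe sets for GAPDH and beta-actin were subtracted from the 3′ ones and averaged, a value that grows as RNA breaks down. It was 1.10 ± 0.19 after DMPT and 1.28 ± 0.13 with vehicle (SD, n = 5; two-sided exact permutation p = 0.143). With this measure as a covariate, 2 of the 32 genes passed (Dnah1 and Spef1), and the median difference was -1.25. Adjusted p was under 0.1 for 17 of the 32. Of all probe sets, 3.06% were lower in this fit, where 5.74% were lower without the covariate. The other 23 genes that had passed no longer did, with all 32 differences still below 0.

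Other genes listed by function for the motile axoneme and its assembly were mostly lower too. Of 54 measured, 29 fell and 1 rose, with a median of -1.02 and 49 differences below 0. Those with the smallest p were Cfap418, Gas8, Dnaaf8 and Cfap276. Gas8, a subunit of the nexin-dynein regulatory complex, read 10.11, 9.97, 9.29, 9.80 and 9.59 in DMPT replicates 1 to 5 and 10.87, 11.53, 10.42, 10.81 and 10.84 in vehicle replicates 1 to 5. Its groups did not overlap and it fell by 1.14 ± 0.20 log2 units (adjusted p = 0.00439). Cfap276, a protein gene of the doublet lumen, read 7.39, 7.26, 5.47, 7.26 and 6.55 in DMPT replicates 1 to 5 and 7.91, 9.55, 7.99, 8.55 and 9.27 in vehicle replicates 1 to 5, and fell by 1.87 ± 0.41 log2 units (adjusted p = 0.014). The groups were again apart. Cfap418 is on the list, but its product is not established as a part of the motile axoneme. It read 9.88, 9.93, 9.81, 9.63 and 9.69 in DMPT replicates 1 to 5 and 10.57, 11.12, 10.43, 10.53 and 10.68 in vehicle replicates 1 to 5. The range was narrow in each group, and Cfap418 fell by 0.88 ± 0.13 log2 units (adjusted p = 0.00154). Dnaaf8, an assembly factor gene, read 8.37, 8.37, 7.36, 7.85 and 7.86 in DMPT replicates 1 to 5 and 9.08, 9.33, 8.60, 9.20 and 9.21 in vehicle replicates 1 to 5, and fell by 1.12 ± 0.20 log2 units (adjusted p = 0.00466), also with no overlap. A second probe set of Dnaaf8 differed by -1.22 ± 0.37 (adjusted p = 0.0545), and its groups overlapped. As represented here, all 4 genes passed in each of the 10 fits that left out 1 array, and with the RNA quality covariate. They were chosen for their small p in these same arrays, so this is not a separate test. Of the 54, 8 were lower with that covariate. Tekt5, a tektin gene known from sperm, was the gene that rose. It read 7.17, 7.39, 7.31, 7.57 and 7.36 in DMPT replicates 1 to 5 and 6.83, 6.85, 7.19, 6.88 and 6.85 in vehicle replicates 1 to 5, and rose by 0.44 ± 0.10 log2 units (adjusted p = 0.0192). Vehicle replicate 3 lay just above DMPT replicate 1, and the rise did not pass once DMPT replicate 4 was omitted (adjusted p = 0.0508) or the RNA quality covariate was added (adjusted p = 0.0554). The number of lower genes in this list was 11, 13 and 14 without DMPT replicates 5, 3 and 4, and 16 and 14 without vehicle replicates 4 and 5.

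Among 7 regulators of multiciliated cells 6 fell, with a median of -1.18. Foxj1 read 11.89, 11.69, 10.61, 11.27 and 11.16 in DMPT replicates 1 to 5 and 12.15, 12.47, 11.52, 12.36 and 12.53 in vehicle replicates 1 to 5, and fell by 0.88 ± 0.25 log2 units (adjusted p = 0.0426). DMPT replicates 1 and 2 lay above vehicle replicate 3, and it passed in 3 of the 10 fits that left out 1 array. With the RNA quality covariate Foxj1 did not pass (adjusted p = 0.0918). Ccno, which drives the multiplication of centrioles, read 9.09, 10.11, 6.76, 8.86 and 8.42 in DMPT replicates 1 to 5 and 11.07, 12.32, 10.92, 11.29 and 11.86 in vehicle replicates 1 to 5, and fell by 2.84 ± 0.51 log2 units (adjusted p = 0.00459). Its 5 DMPT arrays all lay below its vehicle arrays, DMPT replicate 1 included, and it passed in 10 of those fits and with that covariate (adjusted p = 0.0247), whereas for 27 of the 32 structural genes that array lay above vehicle replicate 3. A second probe set of Ccno fell by 0.97 ± 0.14 (adjusted p = 0.00123). Of 20 intraflagellar transport genes, whose products carry cargo in both motile and primary cilia, 8 fell and 0 rose, with a median of -0.57 and 20 differences below 0. Differences between these lists and the structural genes were not tested.

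Some markers of other cells differed between the groups as well. Over all genes, 6.77% fell and 7.13% rose, and lists this short cannot tell a count of 1 from those shares. Of 8 basal and squamous markers 4 rose and 0 fell, and the log2 of their summed level was 15.35 to 15.65 after DMPT and 15.06 to 15.30 with vehicle. Of 8 markers of simple epithelium 3 rose and 0 fell (16.10 to 16.18 after DMPT, 15.89 to 16.01 with vehicle). Of 8 secretory markers 3 fell and 0 rose (14.97 to 15.25 and 15.48 to 15.81), with 5 differences below 0 and the highest at 1.29. All 5 measured genes listed as markers of sustentacular and Bowman gland cells fell (14.69 to 15.00 and 15.34 to 15.55). They came from a list of Cyp2g1, Ermn, Sec14l3, Cyp2a3, Sox9 and Aqp5. Whether these are particular to such cells in this tissue was not tested. All 3 endothelial markers rose (8.99 to 10.43 and 7.69 to 8.61), and 0 of the 3 lay above the median level of all probe sets. Of 7 olfactory neuron markers 1 rose and 0 fell (11.32 to 11.55 and 11.03 to 11.64). Of 5 leukocyte markers 2 rose and 1 fell (13.82 to 14.01 and 14.09 to 14.33). A summed level follows the brightest genes of a list. Averaged over the 5 leukocyte markers in log2 units, the DMPT arrays stood 0.12 above the vehicle mean, although the sum was lower. Of 5 stromal markers 0 passed (13.58 to 14.62 and 13.85 to 14.54). The part of these shifts in the ciliary differences was not tested.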

How the data were processed

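The deposited log2 expression values per probe set were made by the authors with RMA, per the submitters' processing notes; no software version or filter is stated in the labels. RMA subtracts background, usually gives all arrays 1 distribution and combines each set's probes; here array medians ran from 8.21 to 8.35. Precision is limited by the number of arrays. Part of the labels' extraction protocol describes samples of another kind and was not used. Cage mates are not stated in the labels.

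After 57 control probe sets were set aside, 31042 probe sets were fitted in R 4.3.3 by limma 3.58.1, using lmFit and eBayes with treatment as the only term and no filter on low values. P-values are two-sided and adjusted by Benjamini-Hochberg over all of them, with a threshold of 0.05; values after ± are standard errors unless marked SD. "Fell" and "rose" mark genes past it. A gene is represented by its probe set with the highest mean. The series' design text names ORIOGEN, which was not run. Symbols come from the platform annotation, in which 20826 probe sets have 1 symbol, 436 several and 9780 none. No genome build is given for the array, so coordinates are those of RefSeq's GRCr8 promoters alone.

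The members and all lists were chosen with earlier results of these data known. Values of all arrays are given for the 2 members with the smallest p and the member with the largest p in each part, for Foxj1 and Ccno, and for the wider genes with the 4 smallest p or a rise. Some promoter sequences are not reported here. The 9 motif versions were chosen after the expression values were seen. The fit was tested on simulated data. Alternatives were omission of each array, a replicate block, a filter on dim probe sets, arrays centred again, array weights, the RNA quality measure, a variance trend and averaged probe sets.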

Additional observations from a re-analysis of the deposited data

Results flagged for a closer look

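Among 80 sets of 5 values examined for a single array far from the rest, 1 stood out, where chance gives about 1 in 20. In Tekt5 with vehicle, replicate 3 read 7.19 and the other vehicle arrays 6.83 to 6.88, a gap of 0.867 of the whole range.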

How the results depend on the processing

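With 1 array left out at a time, the number of lower genes was 5 to 31 (25 over all arrays), of lower probe sets 6 to 33 (27) and of lower genes of the wider list 11 to 36 (29). Of all probe sets, 3.29% to 6.08% were lower (5.74% over all arrays). The number of higher genes and higher probe sets in limma was 0 in each omission, and the median difference ran from -1.43 to -1.01 (-1.23). With the RNA quality measure as a covariate, 2 genes, 3 probe sets and 8 wider genes were lower, and the cause was not tested. In that fit 3.06% of all probe sets were lower. Without the dimmest 25% of probe sets, with a variance trend and with averaged probe sets 28 genes were lower; with arrays centred again 24 and with array weights 19. All 32 ciliary genes kept a difference below 0 in each of these, and signs over the whole wider list were not followed. Over all probe sets, arrays with the same replicate number in their titles were not consistently alike. Their deviations from the group means correlated at 0.074, 0.22, 0.23, -0.067 and -0.012, and 2 of 5 DMPT arrays correlated best with their own number. Over the ciliary genes, however, replicate 3 was the lowest DMPT array for 31 and the lowest vehicle array for 32. With the numbers as a replicate block, 31 genes, 32 probe sets and 36 wider genes were lower. Of all probe sets, 5.88% were lower with the block and 5.74% without it. Whether same-numbered animals shared a batch was not tested. The limits are 5 animals a group, a wide spread of ciliary RNA among animals of each group, and no measure of cell numbers. Which probe sets rise above background is not given by these values.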

Other observations

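Further wider axonemal genes were named after their values were seen. Of the 54, 5 had a difference above 0 in the probe set that represents them: Tekt5, Rsph6a, Cfap97, Tsnaxip1 and Dnah17. Rsph6a, a spoke head gene known from sperm, differed by 0.08 ± 0.10 log2 units (adjusted p = 0.67) from a vehicle level of 6.45 ± 0.15 (SD, n = 5). Dnah17, an outer arm heavy chain gene known from sperm, differed by 0.01 ± 0.09 log2 units (adjusted p = 0.956) from a vehicle level of 6.99 ± 0.14 (SD). Cfap97 differed by 0.05 ± 0.11 log2 units (adjusted p = 0.816). For Tsnaxip1 the direction depends on the probe set: the one with the higher mean differed by 0.04 ± 0.18 log2 units (adjusted p = 0.933), while the other fell by 1.22 ± 0.22 (adjusted p = 0.00526) with no overlap between groups. Chosen in the same way among intraflagellar transport genes, Ift88 differed by -0.12 ± 0.19 log2 units and did not pass, while Ift57 fell by 0.92 ± 0.20 log2 units (adjusted p = 0.0143) and Ift81 by 1.00 ± 0.21 log2 units (adjusted p = 0.00977). Of the other regulators, Myb fell by 1.18 ± 0.19 log2 units (adjusted p = 0.00283) and Deup1, which builds deuterosomes for centriole multiplication, by 1.60 ± 0.31 log2 units (adjusted p = 0.00675).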
